A study of Mus musculus with 6 samples.

Results

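The collagen genes were followed in 6 Affymetrix 3' expression arrays of colonic mucosa from C57BL/6 mice. All probe sets with exactly 1 gene symbol made of Col, a number, the letter a and a number were taken, which gave 82 probe sets of 42 collagen genes among 18193 named genes, and the brightest probe set over all 6 arrays stood for each gene. There were 3 arrays labelled p38a knockout (A, B and C) and 3 labelled wild type (A, B and C), all of untreated mucosa, with intestinal epithelial cells given as the cell type in the labels. p38a is the stress-activated protein kinase encoded by Mapk14, and the comparison asks which transcripts of the colonic mucosa differ with it. The promoter that drove the deletion, the age of the mice and whether each array came from a separate animal are not stated by the labels, so the p-values measure only the spread between these arrays, which may be technical. A probe set was tested where its mean signal reached the 40th percentile of all probe sets, and 23 of the 42 collagen genes did so among 12437 genes tested. Values are log2(signal + 16) after quantile normalization, a scale whose floor is 4 and on which the difference of a dim gene is understated, and the number of arrays limits the precision.

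Collagens are secreted or membrane-anchored proteins of 3 chains that wind into a triple helix, and the chains are grouped by the structures they build. Fibrillar collagens form the tensile fibres of the lamina propria and submucosa, type IV collagens form the sheet of the basement membrane on which the epithelium rests, type VI collagens form beaded filaments beside cells, and the FACIT collagens (fibril-associated collagens with interrupted triple helices) decorate fibrils. In the gut wall, fibroblasts and smooth muscle cells make most of the fibrillar chains, while chains of the basement membrane come from stroma, vessels and epithelium. Of the 42 genes, 11 were fibrillar, 6 of type IV, 5 of type VI, 9 FACIT, 4 network-forming or anchoring, 4 transmembrane, 2 multiplexins and 1 of another kind.

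The start regions of 4 members, chosen by their values in these arrays, are shown for reference: the fibrillar Col1a2 and Col3a1, both lowest in the array labelled knockout A, the anchoring fibril gene Col7a1, with the smallest p among the collagen genes tested, and the network-forming Col8a1, whose order over the arrays was different. Whether these sequences bear on the order over the arrays was not tested. Each line is the 150 bases before the annotated start from RefSeq (build GRCm38.p6), 5′ to 3′ on the gene's strand, with any CCAAT or TATAA in capitals, also where they lie on the other strand (ATTGG or TTATA). Col1a2 lies at chr6:4505468-4505617 on the plus strand, Col3a1 at chr1:45311388-45311537 on the plus strand, Col7a1 at chr9:108953436-108953585 on the plus strand and Col8a1 at chr16:57754738-57754887 on the minus strand.
Col1a2: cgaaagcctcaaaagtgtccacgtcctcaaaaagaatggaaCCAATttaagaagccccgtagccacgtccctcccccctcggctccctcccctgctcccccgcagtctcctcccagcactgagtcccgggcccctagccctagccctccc
Col3a1: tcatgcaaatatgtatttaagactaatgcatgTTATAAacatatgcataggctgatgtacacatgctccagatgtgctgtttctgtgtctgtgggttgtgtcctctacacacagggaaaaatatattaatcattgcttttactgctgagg
Col7a1: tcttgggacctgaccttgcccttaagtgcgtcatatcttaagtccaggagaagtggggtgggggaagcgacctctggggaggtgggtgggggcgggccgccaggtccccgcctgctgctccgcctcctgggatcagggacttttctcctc
Col8a1: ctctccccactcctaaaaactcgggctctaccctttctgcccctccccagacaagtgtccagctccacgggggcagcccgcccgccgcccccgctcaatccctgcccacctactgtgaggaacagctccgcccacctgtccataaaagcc
Col1a2 holds a CCAAT 109 bases before the start. Col3a1 holds a TATAA 117 bases before it that overlaps its own reverse complement, TTATA. Neither motif is in the windows of Col7a1 and Col8a1. RefSeq windows matched 33 of the 42 collagen genes and 19 of the 23 tested, in 21 promoters. A CCAAT is in 5 of these 21 (23.8%), against 24.5% of all 32851 promoters, and a TATAA in 2 (9.52%), against 14.2% of all. GC content was 62.7% for Col1a2, 37.3% for Col3a1, 64% for Col7a1 and 64.7% for Col8a1, so Col3a1 is the AT-rich one of the 4.

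Facts of the whole series bear on every value. The deposited signals had trimmed means of 192 to 222 in the arrays labelled knockout and 117 to 188 in wild type, and the 3' to 5' Gapdh ratio, which goes up as RNA degrades, was 0.859 to 0.954 in the arrays labelled knockout and 0.989 to 1.45 in wild type, highest in wild type C, so that the groups did not overlap in it. Mapk14 read 9.72, 9.91 and 9.73 in labelled knockout arrays A to C, against 9.31, 9.44 and 9.37 in wild-type arrays A to C (exact two-sided permutation p = 0.1, the smallest possible with 3 against 3). It was thus not lower under the knockout label, and whether its 3' probe set lies in the deleted part was not examined here. The groups are therefore named by their labels.

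No collagen gene passed the test between the groups. limma called 0 of the 23 tested collagen genes at an adjusted p of 0.05, with a background of 0% of the 12437 genes, and 0 of 23 had an unadjusted p under 0.05, where 3.94% of all genes did. In none of the 23 did all arrays of one group lie above all of the other, against 9.06% of all genes, and none of the 23 was 2-fold apart, against 0.587% of all genes. Of the 23, 15 were lower and 8 higher on average under the knockout label, where 46.8% of all genes were lower. The median log2 difference was -0.061, against 0.021 for all genes, and the differences ran from -0.78 for Col7a1 to 0.42 for Col4a1. The 95% intervals of the differences, from limma, were wide, for example -1.52 to 1.03 for Col3a1, so that these arrays do not show the groups to be alike.

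**Figure D1:**
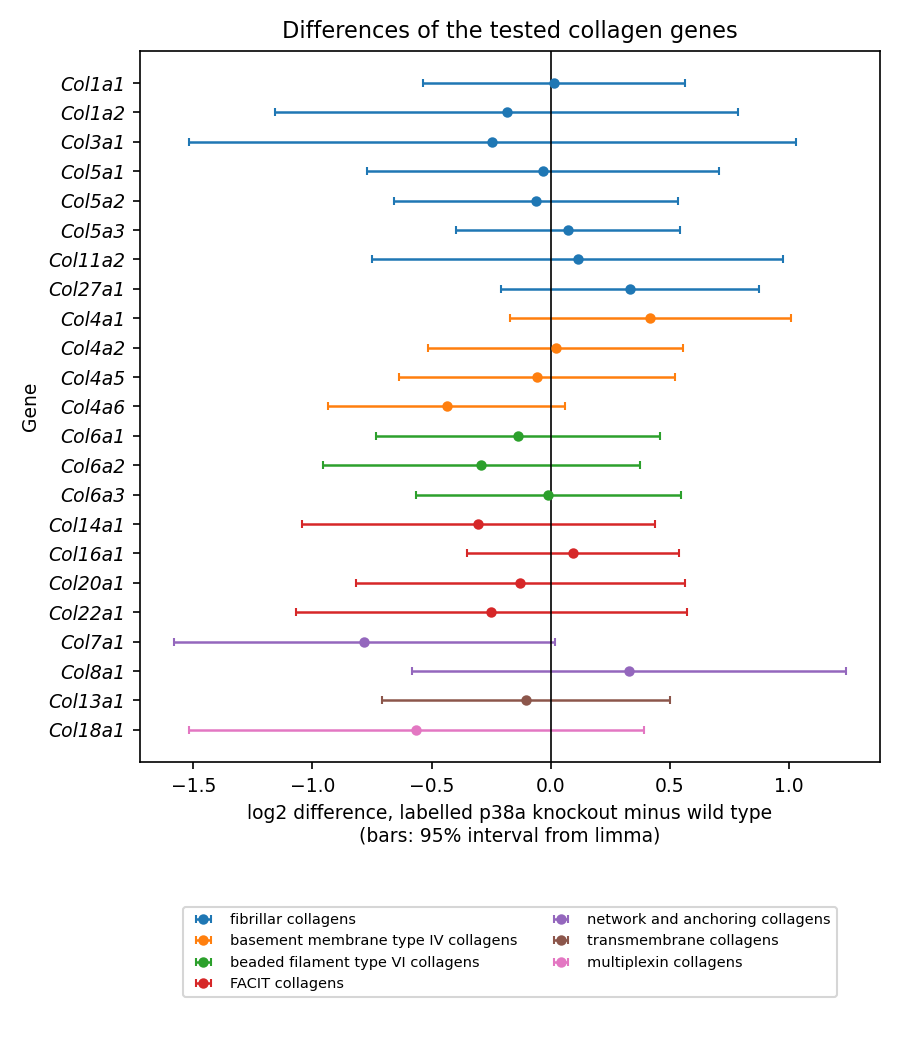
Log2 difference of each of the 23 tested collagen genes (rows, grouped by type), labelled p38a knockout minus wild type, with the 95% interval from limma as bars. Each interval crosses 0, and Col7a1 at -0.78 lies farthest from it.

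Most collagen genes read low in the array labelled knockout A, and the fibrillar ones, by their median, also in wild type B. Of the 23 tested collagen genes, 15 had their lowest value of all 6 arrays in the array labelled knockout A (65.2%), where 15.0% of all genes did. These were 5 of 8 fibrillar, 2 of 4 type IV, 3 of 3 type VI and 3 of 4 FACIT genes, with Col7a1 and Col18a1. A high share was not particular to collagens. The array labelled knockout A was also lowest for 4 of 8 leukocyte and 6 of 12 epithelial markers. Of the latter, Krt8 and Krt19 were level with the array labelled knockout B. It was lowest for 3 of 10 fibroblast and 0 of 6 smooth muscle markers. The median deviation of the 23 genes from their own means was -0.38, 0.19 and 0.13 in labelled knockout arrays A to C, against 0.16, -0.14 and 0.12 in wild-type arrays A to C, while over all genes tested it was 0.045, 0.0069 and -0.013 in labelled knockout arrays A to C and -0.021, 0.029 and -0.012 in wild-type arrays A to C. Array A was low and the other 2 arrays labelled knockout lay at the level of wild type A and C, with wild type B between them and array A. The same array was the brightest as deposited, and there 11 of the 23 genes still had their lowest signal in it, against 5.19% of all genes. Without the array labelled knockout A, 5 of the 23 were lower and the median difference was 0.15. That array was picked for its low values. Leaving it out therefore had to raise the difference of every gene that was lowest in it, here and below. Leaving out other arrays gave counts of lower genes of 19 when the labelled knockout array B was dropped, 17 for C, 18 for wild type B, and 11 for wild type A and likewise for wild type C. The count was 8 against wild type B alone, 11 with a Gapdh covariate and 19 on the deposited signals relative to all genes, so the balance of higher and lower genes turned with several of these choices. limma called no collagen gene in any of these settings.

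**Figure D2:**
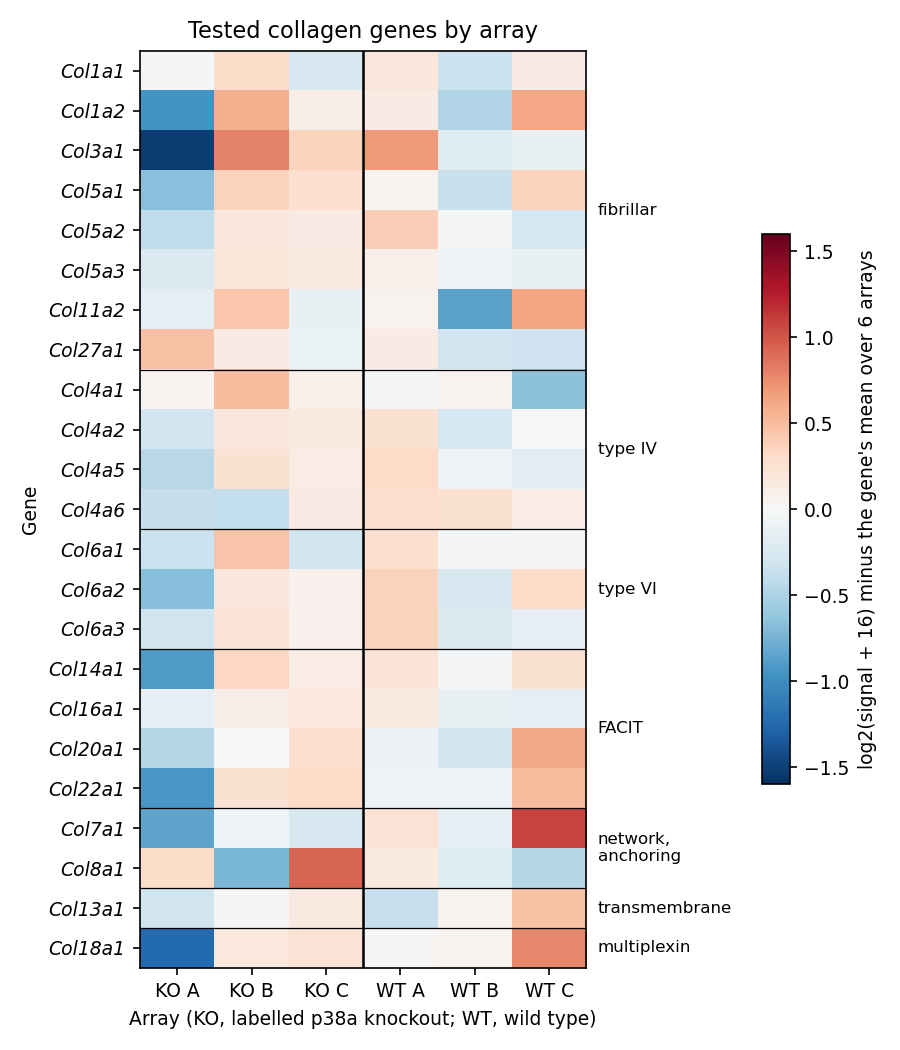
Signal of the 23 tested collagen genes (rows, grouped by type) in each array (columns) as log2(signal + 16) minus the gene's mean over the 6 arrays, red for above and blue for below. The column of the array labelled knockout A is mostly blue, with Col3a1 the darkest, while Col27a1 and Col8a1 are among the few above their means in it.

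Among the fibrillar collagens 8 of 11 genes were tested, and 4 were higher and 4 lower, with a median difference of -0.0088. Without the array labelled knockout A that median was 0.21, and without the array labelled knockout B it was -0.15. The median deviation of the 8 genes from their own means was -0.32, 0.33 and 0.12 in labelled knockout arrays A to C. It was 0.14, -0.32 and 0.011 in wild-type arrays A to C, so wild type B was as low as the array labelled knockout A. Col3a1, the chain of type III collagen in the fine reticular fibres of the mucosa, read 6.56, 8.88 and 8.44 in labelled knockout arrays A to C, against 8.76, 7.89 and 7.97 in wild-type arrays A to C. The array labelled knockout A lay below all others, while B was the highest of the 6, so the groups overlapped (log2 difference -0.25, 95% interval -1.52 to 1.03, limma adjusted p = 0.941). Its deposited signals were 92.2, 504 and 387 in labelled knockout arrays A to C, against 332, 236 and 159 in wild-type arrays A to C, with the same array lowest. Leaving that array out turned the difference to 0.45. Col1a2, the second chain of type I collagen, gave 5.92, 7.47 and 6.98 in labelled knockout arrays A to C and 7.02, 6.40 and 7.50 in wild-type arrays A to C. Again the array labelled knockout A was the lowest, and wild type C and the array labelled knockout B were the highest (log2 difference -0.19, 95% interval -1.16 to 0.79, limma adjusted p = 0.942). Its difference was 0.25 without the array labelled knockout A.

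Col1a1, the main chain of type I collagen, did not share this order on its tested probe set, with 5.66, 5.98 and 5.42 in labelled knockout arrays A to C and 5.86, 5.33 and 5.81 in wild-type arrays A to C (log2 difference 0.015, 95% interval -0.53 to 0.56, limma adjusted p = 0.992). Its tested probe set spanned only 0.64 over the 6 arrays, against 1.58 for that of Col1a2. Its other probe set, too dim to be tested, was lowest in the array labelled knockout A, close to the floor. That one read 4.05, 4.37 and 4.34 in labelled knockout arrays A to C and 4.09, 4.23 and 5.30 in wild-type arrays A to C. Col5a1 encodes a chain of type V collagen, which starts and limits the width of type I fibrils. It stood at 4.87, 5.89 and 5.80 in labelled knockout arrays A to C, against 5.58, 5.18 and 5.89 in wild-type arrays A to C, again lowest in the array labelled knockout A (log2 difference -0.032, 95% interval -0.77 to 0.71, limma adjusted p = 0.986). Its partner chain Col5a2 read 5.12, 5.71 and 5.66 in labelled knockout arrays A to C and 5.93, 5.50 and 5.24 in wild-type arrays A to C, with wild type A highest (log2 difference -0.061, 95% interval -0.66 to 0.54, limma adjusted p = 0.973). Col27a1, a fibrillar chain known from cartilage, was ordered differently, with 5.90, 5.56 and 5.33 in labelled knockout arrays A to C and 5.57, 5.12 and 5.10 in wild-type arrays A to C, the array labelled knockout A being its highest (log2 difference 0.33, 95% interval -0.21 to 0.87, limma adjusted p = 0.902). Col5a3 and Col11a2 differed by 0.072 and 0.11, with ranges over the arrays of 0.42 and 1.48. The cartilage collagen gene Col2a1, with Col11a1 and Col24a1, was too dim to be tested.

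Of the 6 type IV genes 4 were tested, of which 2 were higher and 2 lower, with a median of -0.018 and of 0.16 without the array labelled knockout A. Col4a1 and Col4a2 encode the chains found in nearly all basement membranes. Col4a1 averaged 6.21 ± 0.26 in the arrays labelled knockout and 5.79 ± 0.39 in wild type (SD, n = 3 each), with single values of 6.04, 6.51 and 6.08 in labelled knockout arrays A to C and 5.98, 6.06 and 5.34 in wild-type arrays A to C. Wild type C was low, and wild type B lay above the array labelled knockout A (log2 difference 0.42, 95% interval -0.17 to 1.01, limma adjusted p = 0.902). Once the Gapdh ratio was a covariate the difference was 0.027, and without wild type C, the array with the highest ratio, it was 0.19. The groups did not overlap in this ratio, so the covariate fit cannot cleanly separate it from the label. Col4a2 read 5.15, 5.64 and 5.61 in labelled knockout arrays A to C, against 5.70, 5.18 and 5.46 in wild-type arrays A to C, lowest in the array labelled knockout A and highest in wild type A (log2 difference 0.021, 95% interval -0.51 to 0.55, limma adjusted p = 0.988). Col4a6, a chain of smooth muscle and some epithelial basement membranes, averaged 5.17 ± 0.30 in the arrays labelled knockout and 5.61 ± 0.086 in wild type (SD, n = 3 each). It read 5.01, 4.99 and 5.52 in labelled knockout arrays A to C and 5.68, 5.64 and 5.51 in wild-type arrays A to C, so that only array C of those labelled knockout reached the wild-type values (log2 difference -0.44, 95% interval -0.93 to 0.060, limma adjusted p = 0.902). Its difference kept its sign in all 19 alternatives that gave it a value, between -0.70 and -0.20. Some of these, such as other priors and the replicate block, cannot change a difference. Col4a5, which pairs with it, read 4.75, 5.43 and 5.31 in labelled knockout arrays A to C and 5.52, 5.12 and 5.03 in wild-type arrays A to C (log2 difference -0.057, 95% interval -0.64 to 0.52, limma adjusted p = 0.974). Col4a3 and Col4a4, chains of the kidney glomerulus among other sites, were below the signal limit.

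**Figure D3:**
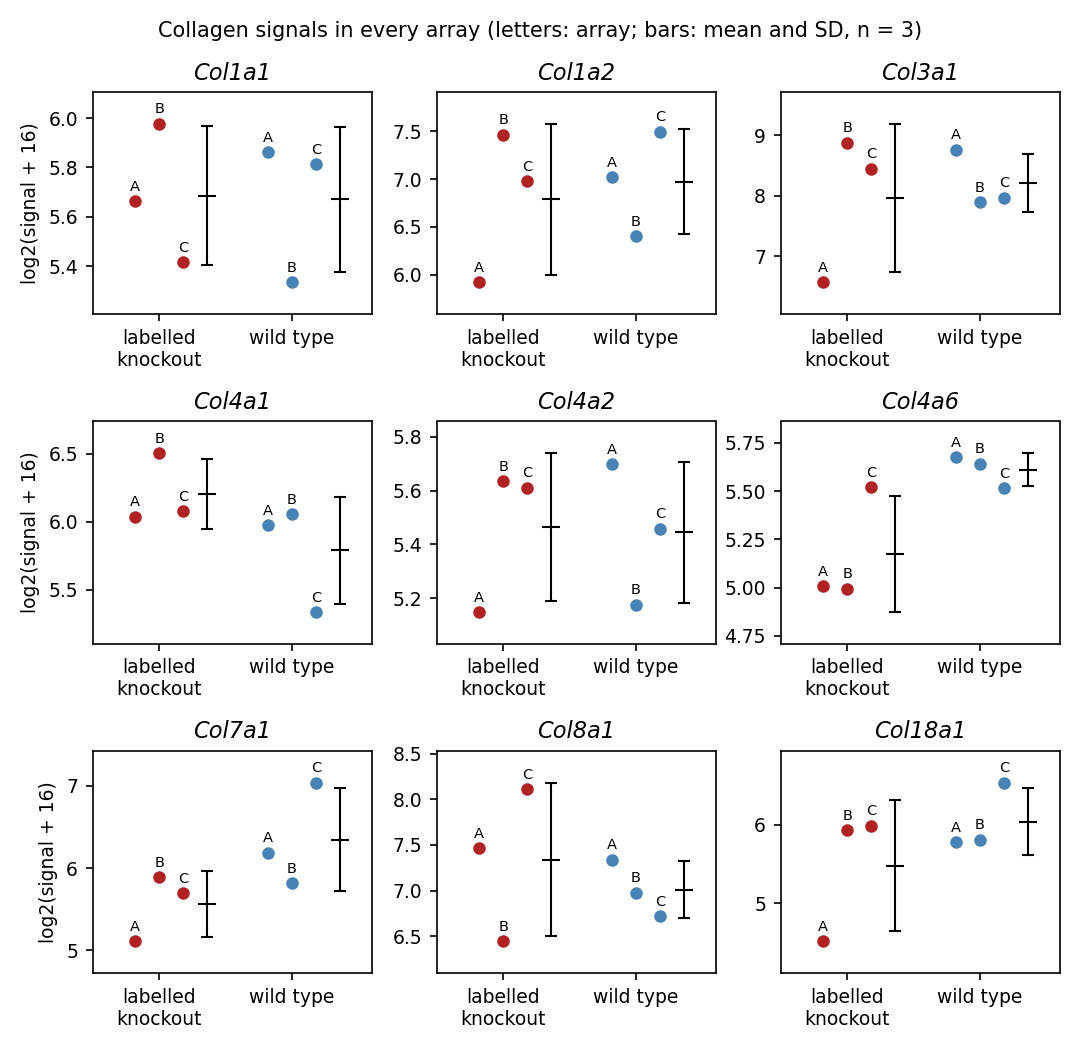
Signals of 9 collagen genes in every array as log2(signal + 16), with letters for the arrays, the arrays labelled p38a knockout to the left of wild type, and the mean and SD of 3 arrays beside each group. The groups overlap in every panel, and the array labelled knockout A is the lowest point for Col1a2, Col3a1, Col4a2, Col7a1 and Col18a1.

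The 3 chains of type VI collagen that were tested, which assemble together, were ordered alike at both ends. Col6a1 read 5.83, 6.62 and 5.85 in labelled knockout arrays A to C, against 6.43, 6.15 and 6.14 in wild-type arrays A to C (log2 difference -0.14, 95% interval -0.74 to 0.46, limma adjusted p = 0.927). Col6a2 read 5.51, 6.37 and 6.25 in labelled knockout arrays A to C, against 6.56, 5.94 and 6.51 in wild-type arrays A to C (log2 difference -0.29, 95% interval -0.96 to 0.38, limma adjusted p = 0.902), from a probe set whose suffix marks possible cross-hybridisation. Col6a3, the longest of these chains, read 5.54, 6.08 and 5.93 in labelled knockout arrays A to C, against 6.22, 5.64 and 5.73 in wild-type arrays A to C (log2 difference -0.010, 95% interval -0.57 to 0.55, limma adjusted p = 0.995). In each of them the array labelled knockout A was lowest, for Col6a1 nearly level with C, and the array labelled knockout B and wild type A were the highest pair or, for Col6a2, 2 of the highest 3. Without the array labelled knockout A the difference was -0.0026 for Col6a1, -0.025 for Col6a2 and 0.14 for Col6a3. Col6a4 and Col6a5 were below the signal limit.

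Of the 9 FACIT genes 4 were tested. Col14a1, a fibril-surface collagen of fibroblasts, read 5.13, 6.37 and 6.14 in labelled knockout arrays A to C, against 6.26, 6.02 and 6.28 in wild-type arrays A to C. The array labelled knockout A lay 1.08 below the mean of the other 5, which lay close together (log2 difference -0.30, 95% interval -1.05 to 0.44, limma adjusted p = 0.902). Col22a1, a collagen of tissue junctions, gave 4.29, 5.46 and 5.52 in labelled knockout arrays A to C and 5.15, 5.15 and 5.72 in wild-type arrays A to C, with the same array lowest (log2 difference -0.25, 95% interval -1.07 to 0.57, limma adjusted p = 0.906). Without the array labelled knockout A the differences were 0.072 for Col14a1 and 0.15 for Col22a1. Col20a1 gave 5.16, 5.62 and 5.87 in labelled knockout arrays A to C and 5.52, 5.29 and 6.22 in wild-type arrays A to C (log2 difference -0.13, 95% interval -0.82 to 0.56, limma adjusted p = 0.945). Col16a1, found beside fibrils and basement membranes, varied least of the collagen genes tested, with 6.22, 6.47 and 6.52 in labelled knockout arrays A to C and 6.50, 6.23 and 6.20 in wild-type arrays A to C (log2 difference 0.093, 95% interval -0.35 to 0.54, limma adjusted p = 0.939). The cartilage genes Col9a1, Col9a2 and Col9a3, with Col12a1 and Col19a1, were below the signal limit.

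Col7a1 and Col8a1 varied over the arrays in different orders. Col7a1 encodes the collagen of the anchoring fibrils, which tie a basement membrane to the stroma. It averaged 5.56 ± 0.41 in the arrays labelled knockout and 6.35 ± 0.63 in wild type (SD, n = 3 each), with 5.11, 5.89 and 5.69 in labelled knockout arrays A to C and 6.19, 5.81 and 7.04 in wild-type arrays A to C. Wild type C was the highest and the array labelled knockout A the lowest, and the groups overlapped only through the array labelled knockout B, which lay above wild type B (log2 difference -0.78, 95% interval -1.58 to 0.016, limma adjusted p = 0.902; unadjusted p = 0.0538). The difference was -0.25 when wild type B alone served as control and -0.015 once the Gapdh ratio was a covariate, a ratio that was also highest in wild type C. It was -0.44 without wild type C. The covariate fit has the same limit as for Col4a1, since the groups did not overlap in the ratio. Col8a1, a short-chain collagen made by vascular smooth muscle and endothelium, read 7.47, 6.44 and 8.11 in labelled knockout arrays A to C, against 7.34, 6.98 and 6.72 in wild-type arrays A to C. The arrays labelled knockout held both its highest value, in C, and its lowest, in B (log2 difference 0.33, 95% interval -0.58 to 1.24, limma adjusted p = 0.902). Without the array labelled knockout C the difference was -0.057. Of the same group, Col8a2 and the growth plate collagen gene Col10a1 were below the signal limit.

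Col18a1 encodes a multiplexin of basement membranes whose end fragment is endostatin. Its signals were 4.51, 5.93 and 5.98 in labelled knockout arrays A to C, against 5.78, 5.81 and 6.53 in wild-type arrays A to C. The array labelled knockout A was near the floor of the scale and each of the other 5 lay more than 1 unit above it (log2 difference -0.56, 95% interval -1.52 to 0.39, limma adjusted p = 0.902), and without that array the difference was -0.082. Col13a1, a transmembrane collagen, read 4.90, 5.23 and 5.37 in labelled knockout arrays A to C and 4.85, 5.27 and 5.69 in wild-type arrays A to C (log2 difference -0.10, 95% interval -0.71 to 0.50, limma adjusted p = 0.950). The other transmembrane genes, Col17a1 (a hemidesmosome collagen of stratified epithelia), Col23a1 and Col25a1, were below the limit, as was Col26a1.

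In all, 19 of the 42 collagen genes were below the signal limit, which lies at 5.10 on the log2 scale. The closest tested gene was Col11a2, with a mean of 5.13, and the closest untested gene was Col12a1, with 4.91. The differences of the 19 genes ran from -0.56 for Col25a1 to 0.74 for Col15a1, and with no signal limit the groups did not overlap in 3 of all 42 collagen genes (Col10a1, Col15a1 and Col24a1), where 9.32% of all 18193 genes had no overlap. Col15a1, a multiplexin of vessel and muscle basement membranes, read 5.11, 4.75 and 5.42 in labelled knockout arrays A to C, against 4.37, 4.29 and 4.41 in wild-type arrays A to C. All 3 arrays labelled knockout lay above all wild-type arrays, close to the floor, and with deposited signals of 19.6, 12.2 and 31.0 in labelled knockout arrays A to C against 4.21, 3.17 and 5.14 in wild-type arrays A to C. With no limit on signal, limma gave it an unadjusted p of 0.00573, where 4.49% of all genes were under 0.05, and an adjusted p of 0.914, so it was not called. Col24a1 gave 4.16, 4.09 and 4.10 in labelled knockout arrays A to C and 4.34, 4.27 and 4.31 in wild-type arrays A to C, and Col10a1 differed by 0.042, both next to the floor.

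Other probe sets of the same genes were read as a check within the arrays. For 7 genes at least 2 probe sets passed the signal limit. The less bright one had the same sign as the brightest for Col1a2 (-0.15), Col3a1 (-0.15), Col6a2 (-0.64), Col8a1 (0.32) and Col14a1 (-0.65). It had the opposite sign for Col5a1 (0.32) and Col27a1 (-0.33), so the direction of these 2 genes depends on the probe set. Of the 5 of these genes whose brightest probe set was lowest in the array labelled knockout A, 3 were lowest there on the less bright one too, namely Col1a2, Col3a1 and Col14a1, at 4.89, 4.82 and 4.17. The less bright Col6a2 probe set read 5.14 there and lower, 4.98, in the array labelled knockout C. That of Col5a1 read 5.16 there, against 4.96 and 5.05 in the wild-type arrays A and C. A second Col4a1 probe set, below the limit and chosen after its values were seen, read 4.63, 4.81 and 5.11 in labelled knockout arrays A to C and 4.45, 4.47 and 4.27 in wild-type arrays A to C, higher in every array labelled knockout. Less bright probe sets of Col22a1 (0.26) and Col23a1 (-0.090), also below the limit, had no overlap either. They ran against their brightest ones (-0.25 and 0.38). With no signal limit, 9.32% of all genes had no overlap on their brightest probe set.

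Several collagen genes lie next to each other in the RefSeq annotation of GRCm38.p6, among them 4 pairs in which both were tested. Col3a1 and Col5a2 were both lowest in the array labelled knockout A, as were Col6a1 and Col6a2. Col4a1 and Col4a2 were not alike, since Col4a1 was lowest in wild type C and Col4a2 in the array labelled knockout A. Col4a5 and Col4a6 had their highest value in wild type A and their lowest in the arrays labelled knockout A and B.

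Genes that modify, fold and cross-link collagen chains were mixed in their order over the arrays. Of 36 listed symbols, which include older names, 27 had a probe set and 18 were tested. Of these 15 were lower (83.3%) and 3 higher, where 46.8% of all genes were lower. None was called by limma, and the median difference was -0.11. The median deviation of the list was 0.031, -0.048 and -0.11 in labelled knockout arrays A to C and 0.087, 0.10 and -0.022 in wild-type arrays A to C. P4ha1, a subunit of prolyl 4-hydroxylase, which stabilises the triple helix, read 6.28, 6.17 and 6.36 in labelled knockout arrays A to C, against 6.94, 6.71 and 6.72 in wild-type arrays A to C, with no overlap (log2 difference -0.51, SE 0.18, limma adjusted p = 0.902). Only 1 of the 18 genes had no overlap, where 9.06% of all genes had none. The lysyl hydroxylase gene Plod1 averaged 5.20 ± 0.23 in the arrays labelled knockout and 5.80 ± 0.57 in wild type (SD, n = 3 each; log2 difference -0.60, SE 0.30, limma adjusted p = 0.902). Its relative Plod3 averaged 6.78 ± 0.11 in the arrays labelled knockout and 6.41 ± 0.44 in wild type (SD, n = 3 each; log2 difference 0.37, SE 0.25, limma adjusted p = 0.902). The lysyl oxidase relative Loxl3 stood at -0.34. In 4 of the 18 genes the array labelled knockout A was the lowest of all 6, and in 2 it was the highest. The low ones, chosen after their values were seen, were 4 genes of different roles: Serpinh1 is a collagen chaperone, Pcolce helps to trim procollagen, Loxl1 is a lysyl oxidase relative, and Sparc binds collagen. Serpinh1 read 5.38, 6.51 and 5.99 in labelled knockout arrays A to C and 6.80, 6.46 and 5.86 in wild-type arrays A to C (log2 difference -0.42, SE 0.34, limma adjusted p = 0.902). Sparc read 5.74, 7.08 and 6.33 in labelled knockout arrays A to C and 7.24, 6.57 and 6.60 in wild-type arrays A to C. Loxl1 read 4.28, 5.79 and 4.90 in labelled knockout arrays A to C and 6.06, 4.95 and 5.25 in wild-type arrays A to C. All 3 were highest in wild type A, as was Pcolce, which read 5.79, 7.12 and 6.77 in labelled knockout arrays A to C and 7.16, 6.65 and 6.17 in wild-type arrays A to C.

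Partners and receptors of collagen gave no call either. Of 7 tested collagen receptor genes 4 were higher and 3 lower, with a median of 0.23. The higher ones were the integrin genes Itgb1 at 0.29 (SE 0.19), Itga2 at 0.44 (SE 0.32) and Itga1 at 0.24 (SE 0.21). The receptor tyrosine kinase gene Ddr2, at 0.23 (SE 0.20), was higher too. The lower ones were Itga10 at -0.20, Cd44 at -0.15 and Ddr1 at -0.062. Of 15 proteoglycan and glycoprotein genes of fibrils 8 were higher and 7 lower, with a median of 0.062. The higher ones included Postn at 0.56, Bgn at 0.41, Fbln1 at 0.37 and Eln at 0.36. Among the lower ones were Dcn at -0.65 (SE 0.60), the largest difference of the list, and Fbln2 at -0.45 (SE 0.34). Of 12 basement membrane genes that are not collagens 6 were higher and 6 lower, with a median of -0.031. The proteoglycan gene Agrn stood at -0.81 (SE 0.43), the laminin genes Lama3 and Lamb2 at -0.58 and 0.26, and the nidogen gene Nid2 at 0.28. The smallest limma adjusted p in these lists was 0.902.

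Markers of the cells that make collagen also differed between arrays. Fewer cells of a type and less RNA per cell cannot be told apart in bulk samples. Epithelial markers were all tested (12 of 12), with a summed normalized signal of 75479.8 to 84456 in the arrays labelled knockout and 75443 to 86442 in wild type, so the markers of the labelled cell type were present at high signal in both groups. Their brightest member, the keratin gene Krt8, read 13.71, 13.71 and 13.77 in labelled knockout arrays A to C and 13.75, 13.72 and 13.75 in wild-type arrays A to C. The median deviation of the epithelial markers was -0.047, -0.11 and 0.060 in labelled knockout arrays A to C and 0.025, -0.067 and 0.066 in wild-type arrays A to C. Fibroblast markers (10 of 14 tested; Pdgfra, Cd34, Twist1 and Islr below the limit) summed to 817 to 2654 in the arrays labelled knockout and 1391 to 2432 in wild type, so stromal transcripts were measured beside epithelial ones. Their brightest member Dcn, the fibril-binding proteoglycan decorin, which like Dpt, Fbln1 and Lum is also in the list of fibril proteins, read 7.65, 10.45 and 8.67 in labelled knockout arrays A to C and 9.86, 9.38 and 9.48 in wild-type arrays A to C, lowest in the array labelled knockout A and highest in B. Of the 10 markers, 3 (Dcn, Vim and Thy1) were lowest in that array and 4 in wild type B, while Fbln1 had its highest value in the array labelled knockout A, at 6.53. The median deviation of the fibroblast markers was -0.20, 0.27 and -0.12 in labelled knockout arrays A to C and 0.13, -0.19 and 0.22 in wild-type arrays A to C. Leukocyte markers (8 of 10 tested; Cd79a and Itgam below the limit) summed to 712 to 1815 in the arrays labelled knockout and 802 to 2962 in wild type. Their median deviation was -0.83, 0.24 and -0.19 in labelled knockout arrays A to C and 0.35, -0.76 and 1.06 in wild-type arrays A to C, lowest in the array labelled knockout A and in wild type B. The brightest of them, Ptprc (CD45), read 8.54, 9.72 and 9.12 in labelled knockout arrays A to C and 9.90, 8.84 and 10.52 in wild-type arrays A to C. Of the 8 leukocyte markers 7 were lower under the knockout label (87.5%, against 46.8% of all genes), with a median difference of -0.37. Thy1 of the fibroblast list had the same order over the 6 arrays as Ptprc. It ran from 5.48 in the array labelled knockout A to 7.45 in wild type C. Whether Thy1 and Vim came from fibroblasts here was not tested. Smooth muscle markers (6 of 10 tested; Myh11, Cnn1, Lmod1 and Synpo2 below the limit) had median deviations of 0.65, -0.16 and 0.22 in labelled knockout arrays A to C and -0.11, -0.36 and -0.18 in wild-type arrays A to C. They summed to 652 to 1074 in the arrays labelled knockout and 634 to 941 in wild type, and 5 of the 6 were highest in the array labelled knockout A. Among these, Tagln read 6.88, 5.20 and 5.64 in labelled knockout arrays A to C and 5.16, 4.56 and 4.85 in wild-type arrays A to C, and Acta2 read 8.40, 7.57 and 7.95 in labelled knockout arrays A to C and 7.78, 6.89 and 7.59 in wild-type arrays A to C. The brightest, Mylk, was not, with 8.82, 8.58 and 9.06 in labelled knockout arrays A to C and 8.59, 8.84 and 9.39 in wild-type arrays A to C. Endothelial markers (5 of 10 tested; Pecam1, Cdh5, Tek, Emcn and Vwf below the limit) summed to 188 to 239 in the arrays labelled knockout and 196 to 249 in wild type, and of the nerve and glia markers only Sox10 was tested. The brightest endothelial marker was Lyve1. The groups did not overlap in 1 of 12 epithelial (Krt18, -0.25) and 1 of 5 endothelial markers (Eng, -0.36). The same held for 1 of 6 smooth muscle (Tagln, 1.04) and 1 of 8 leukocyte markers (Cd3e, -1.01). Of all genes 9.06% had no overlap, and limma called none of these markers. The part of these cell types in the collagen signals was not tested.

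**Figure D4:**
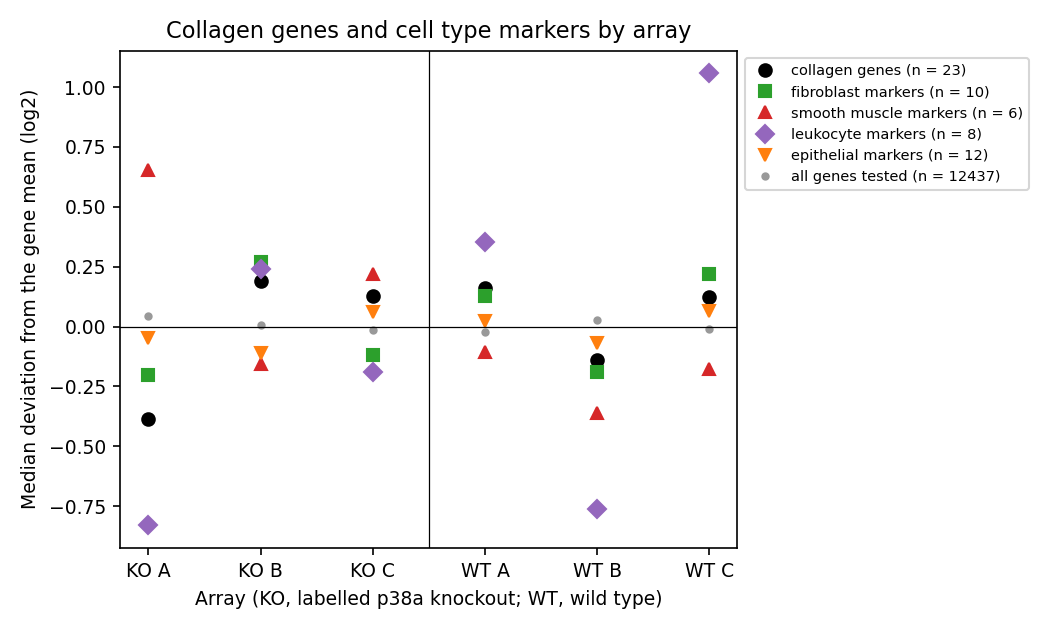
Median deviation of each gene list from its genes' own means (log2) in each array, for collagen genes (black), fibroblast, smooth muscle, leukocyte and epithelial markers and all genes tested (grey); arrays labelled p38a knockout are left of wild type. Collagen, fibroblast and leukocyte medians are low and the smooth muscle median high in the array labelled knockout A. In wild type B the collagen (-0.14), fibroblast (-0.19), smooth muscle (-0.36) and leukocyte (-0.76) medians are all below 0. Epithelial markers stay near 0.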

How the data were processed

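The authors deposited linear intensities of 45101 probe sets, which come from MAS5 (submitters' processing notes). Its version and scaling were not given in the sources used here. The labels' protocols record Trizol extraction, column purification and a 3' in vitro transcription kit. From these intensities log2(signal + 16) was taken and quantile normalized over all probe sets, which removes overall differences between arrays. Probe sets under the 40th percentile of mean signal (about 18.4) and 64 control probe sets were left out, and symbols came from the platform annotation. The groups were compared over all 12437 genes tested in limma's lmFit and eBayes, with a trended prior variance (limma 3.58.1, R 4.3.3; 4.19 prior and 4 residual degrees of freedom), with Benjamini-Hochberg adjustment at 0.05. The fit was run on simulated data with planted differences larger than that of any collagen gene here, and recovered them on average. That run does not show how well smaller differences are found. Sequences came from RefSeq.

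The members, gene lists, tests and alternatives were chosen with earlier results of these data known. All collagen genes are named. Values in each array are given for the main fibrillar, type IV, type VI and anchoring genes and the further ones with the smallest p. Of other lists up to 4 genes with the smallest p and the brightest markers are named. Some further members, chosen after their values were seen, are also named. Alternatives were other scalings, pseudocounts, filters, probe set choices, priors, weights per array, a replicate block, leaving out each array, wild type B alone as control, and a Gapdh ratio covariate. The groups did not overlap in the Gapdh ratio, so that covariate cannot be cleanly separated from the label.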

Additional observations from a re-analysis of the deposited data

How the results depend on the processing

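limma called no collagen gene under any of the 20 alternatives, with adjusted p-values of the tested collagen genes from 0.158 upward. The number of all genes called, 0 in the setting reported, was 1 on the signals as deposited, with arrays centred on their medians, with a pseudocount of 64 and against wild type B alone, 3 with the replicate block, 29 with array weights, and 0 to 6 when 1 array was left out. The median difference of the fibrillar genes was 0.34 when wild type B alone served as control and 0.30 with the Gapdh covariate, and that of the type IV genes was -0.25 on the signals as deposited and with arrays centred on their medians, relative to all genes. At the 60th percentile only 6 collagen genes were tested and none of type IV. Other priors, other filters and the replicate block cannot change the difference of a tested probe set, so a sign kept there says nothing about it. Of the 23 genes, 5 (Col4a1, Col4a6, Col6a1, Col7a1 and Col18a1) kept the sign of their difference in every alternative that gave a value, though some came close to 0: over all alternatives the range was 0.027 to 0.56 for Col4a1, -0.70 to -0.20 for Col4a6, -0.40 to -0.0026 for Col6a1, -1.05 to -0.015 for Col7a1 and -0.95 to -0.082 for Col18a1. With 1 array left out these ranged from 0.19 to 0.55 for Col4a1, -0.61 to -0.35 for Col4a6, -0.40 to -0.0026 for Col6a1, -1.05 to -0.44 for Col7a1 and -0.82 to -0.082 for Col18a1. With array weights, the sign turned for Col13a1 0.22, Col16a1 -0.037, Col1a1 -0.035, Col4a2 -0.13, Col5a1 0.022 and Col8a1 -0.18. When probe sets were averaged per gene, the sign turned for Col27a1 -7.2e-04 and Col5a1 0.14. Against wild type B alone, the sign turned for Col1a2 0.38, Col20a1 0.26, Col3a1 0.073, Col4a5 0.047, Col5a1 0.34, Col6a2 0.11 and Col6a3 0.21. With the Gapdh covariate, the sign turned for Col13a1 0.22, Col1a2 0.50, Col20a1 0.40, Col22a1 0.11, Col5a1 0.37 and Col8a1 -0.17. On the signals as deposited, and equally with arrays centred on their medians, each relative to the median of all genes (0.43 and 0.20), the sign turned for Col11a2 -0.13, Col1a1 -0.16, Col4a2 -0.19 and Col5a3 -0.18. With 1 array left out, the differences that turned at least once ranged as follows: Col11a2 -0.28 to 0.46, Col13a1 -0.31 to 0.10, Col14a1 -0.55 to 0.072, Col1a1 -0.15 to 0.15, Col1a2 -0.52 to 0.25, Col20a1 -0.32 to 0.14, Col22a1 -0.47 to 0.15, Col3a1 -0.70 to 0.45, Col4a2 -0.11 to 0.18, Col4a5 -0.19 to 0.15, Col5a1 -0.22 to 0.29, Col5a2 -0.22 to 0.13, Col5a3 -0.0049 to 0.21, Col6a3 -0.13 to 0.17 and Col8a1 -0.057 to 0.78. Lone wild type B was assumed to vary like the other group. The deviations of same-lettered arrays from their group means correlated by -0.042 for A, -0.11 for B and 0.45 for C over genes. These values do not settle whether the letters pair the arrays, and the setting reported did not pair them. The replicate block left every difference as it was, -0.061 in the median over the 23 genes, and called no collagen gene. Array weights used the gene-by-gene method. The cause of these changes was not tested. Dim probe sets near the floor limit what the other 19 genes can show.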
